A study of Brachypodium distachyon with 9 samples.

Results

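The transcripts described here were compared between 3 RNA libraries of the mutant hdac19-2b and 3 of its wild type, all from droughted shoots of the grass Brachypodium distachyon. These are 6 of the 9 libraries of the series, taken by genotype, and every feature of the count table entered, 28607 in all, of which 22984 held enough counts to be tested. The wild type is inbred line 21-3, a small temperate grass that serves as a model for cereals. The mutant shares that background and is homozygous for a CRISPR/Cas9 mutation in exon 1 of the gene for HISTONE DEACETYLASE 19 (HDAC19), which creates a premature stop codon. Plants of both groups were 18 days old when watering stopped, and the drought lasted 15 days. Before the drought, light lasted 14 h at 20 °C and dark 10 h at 18 °C. During the drought, light lasted 16 h and dark 8 h. Whole aboveground parts at the 5-leaf stage were taken 3 h after dawn, and RNA was selected for poly(A) tails. The group hdac19-2b is 1 mutant line, both groups were droughted, and no watered plants are analysed here. How many plants went into a library is not given in the sources used here. The samples are labelled biological replicates, and p-values measure the spread among them. In whole shoots, fewer cells of a type and less RNA per cell cannot be told apart.

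Histone deacetylases remove acetyl groups from lysines in histone tails, which generally makes chromatin less open to transcription. In Arabidopsis, the HDAC19 counterpart HDA19 works in corepressor complexes, and its mutants respond differently from wild type to abscisic acid, salt and drought. Abscisic acid is the hormone through which plants close stomata and switch on protective genes when water is short. The files pair neither HDAC19 nor any other histone deacetylase with a locus, so the targeted gene itself is not analysed here. A name or a functional description is annotated for just 210 features, 158 of them tested, so for most loci below no function can be given.

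Library totals ran from 12041696 to 36632994 counts in wild type and from 11135028 to 17066545 in hdac19-2b. Levels are given as CPM (counts per 1000000, after scaling between libraries), and are not divided by feature length. A floor of 3 counts in a library is worth 0.0864 to 0.259 CPM, which covers counting error only. Correlations of log2 CPM across features were 0.920 to 0.940 within a group and 0.899 to 0.929 between the groups. The first principal component, with 31.3% of the variance, put the wild type libraries between −56.7 and −44.3 and the mutant libraries between 26.1 and 80.6, with hdac19-2b replicate 2 farthest out. The leaf gene rbcL, the chloroplast gene for the large subunit of Rubisco, was abundant in all 6 libraries, at 2474 to 6482 CPM. The lists for nuclear photosynthesis, root, pollen and seed had no annotated member, so other tissues could not be checked.

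More transcripts fell in hdac19-2b than rose. Of the 22984 tested features, 235 (1.02%) passed edgeR's quasi-likelihood test at a Benjamini-Hochberg adjusted p under 0.05, and these are referred to as called. The mutant was lower in 171 of them (0.744%) and higher in 64 (0.278%). The median log2 fold change was −1.76 among the called falls and 2.01 among the called rises, beside 0.0133 over all tested features. At least a 4-fold change was seen in 64 of the falls and 32 of the rises. The falls had a median of 56.2 CPM in wild type, against 16.4 CPM in hdac19-2b. The rises went from a median of 6.05 to 24.2 CPM, while all tested features had medians of 15.0 and 15.1 CPM. The falls were thus the more abundant in wild type and the rises in hdac19-2b. Sorting features by direction itself favours such a contrast within either group. In every called feature the libraries of the 2 groups did not overlap, which was also so for 17.0% of all tested features.

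**Figure D1:**
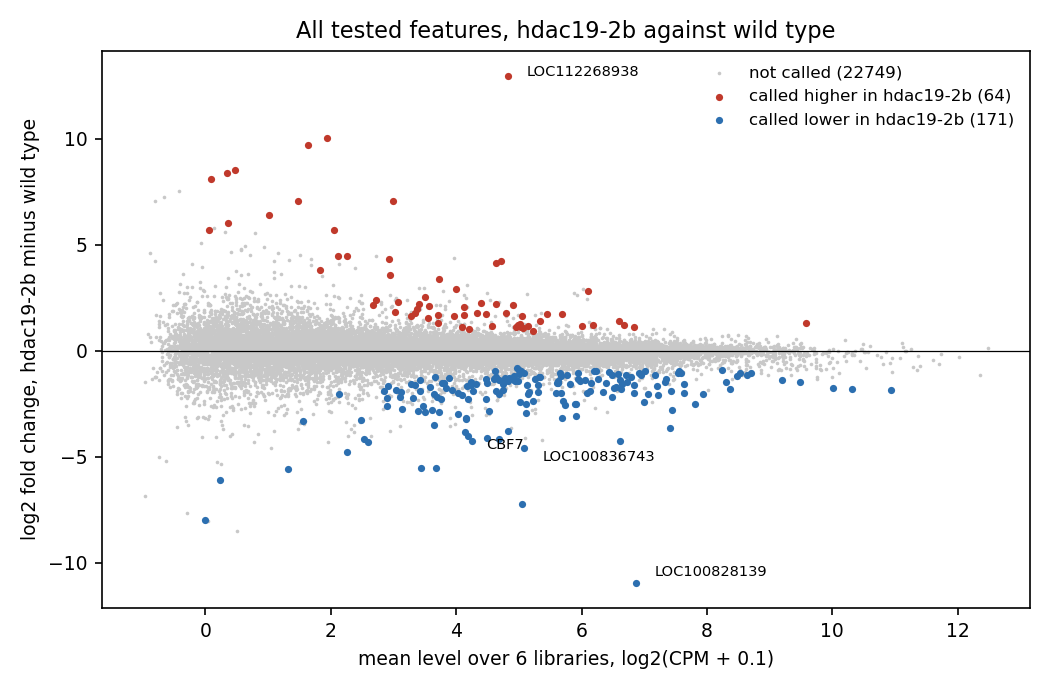
Each point is 1 of the 22984 tested features, with its mean level over the 6 libraries (log2 of CPM + 0.1, horizontal) and its log2 fold change, hdac19-2b minus wild type (vertical); red points are the 64 called rises, blue points the 171 called falls and grey points the rest. Called falls lie over a wide range of levels, and of the called rises above 5 LOC112268938 has the highest mean level. For features with 0 counts in a group, the plotted fold change depends on the prior count of the fit.

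The number of calls depended on the libraries in the fit. It was 124, 273 and 58 without wild type replicate 1, 2 and 3, and 45, 6 and 59 without hdac19-2b replicate 1, 2 and 3. A fit with the 3 libraries of the other mutant, gf14h-1, added called 65 (0.272%), 19 higher and 46 lower, all of them among the 235. On the 6 libraries, limma-trend called 273 (1.19%), counts summed per gene gave 449 (2.1% of loci), and the DESeq2 Wald test called 1008 (3.54%), which included all 235. All 235 kept their sign in every setting at the level of features. Called whichever library was left out were 4 features, the falls of LOC100828139, LOC100836743 and LOC100844361 and the rise of LOC112268938. Wild type replicate 1 had the highest of the wild type levels in 99 of the 171 falls (57.9%, beside 35.1% of all tested features), and wild type replicate 2 the lowest in 96 of them (56.1%). Among the 64 rises, hdac19-2b replicate 2 had the highest mutant level in 36 (56.2%, beside 30.5% of all). The part of these libraries in the results was not tested.

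**Figure D2:**
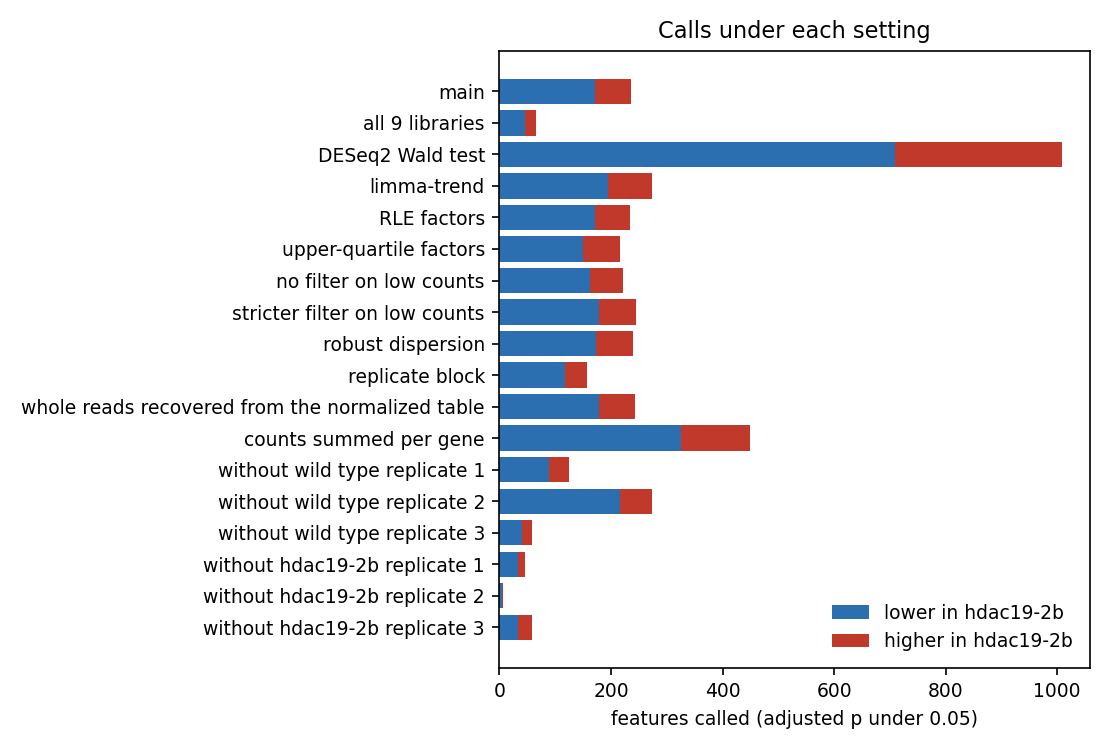
Bars give the number of features called (adjusted p under 0.05) in each fit, split into features lower (blue) and higher (red) in hdac19-2b; the top bar is the fit reported here, with 171 lower and 64 higher. Falls outnumber rises in every fit shown, and the smallest count is 6, without hdac19-2b replicate 2.

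Among the falls, the greatest was that of LOC100828139, a protein-coding locus (chromosome 4, 45565309 to 45567774, plus strand; all coordinates are on Brachypodium_distachyon_v3.0). It stood at 274, 186 and 238 CPM in wild type replicates 1, 2 and 3, and at 0.292, 0 and 0 CPM in the mutant. Over all libraries it had 5 counts in hdac19-2b, and the ratio of pooled levels was 2089, wild type to mutant, with an exact 95% counting interval of 895 to 6435 (edgeR adjusted p 0.000333). A gene far above the wild type median of all tested features (15.0 CPM) was thus near 0 in all 3 mutant libraries. LOC100836743 (chromosome 2, 53126290 to 53127511, plus strand) had 68.2, 52.2 and 74.2 CPM in wild type, against 3.04, 1.64 and 3.14 CPM in hdac19-2b. The libraries were tight within each group and far apart between them, a log2 fold change of −4.61 (SE 0.28, edgeR adjusted p 0.000852). LOC100834335 (chromosome 3, 40359281 to 40360482, minus strand) had 131, 21.1 and 45.6 CPM in wild type, a wide spread, and 0.409, 0.777 and 0.192 CPM in hdac19-2b. The log2 fold change was −7.22 (SE 0.83, edgeR adjusted p 0.0111).

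The other 7 of the 10 largest falls, ranked by fitted log2 fold change, which for the scarcest features depends on the prior count, were also protein-coding loci without an annotated function. LOC100843613 (chromosome 5, 27592933 to 27596133) was scarce but steady in wild type, at 1.73, 1.91 and 1.73 CPM, while no mutant library held a count of it, at least 26.1-fold lower over the pooled libraries of the group (edgeR adjusted p 0.0393). LOC100838628 had 123 pooled counts in wild type and 1 in the mutant, a pooled ratio of 89.9 (95% counting interval 15.8 to 3578), and LOC100837855 had 290 and 4, a pooled ratio of 53.0 (20.5 to 196). LOC100823053 had a log2 fold change of −5.53, LOC100845084 of −5.52, LOC100842630 of −4.80 and LOC100846470 of −4.31. LOC100838628 overlaps another locus on its own strand and LOC100823053 one on the opposite strand, and whether the authors counted reads by strand is not given, so their values are uncertain. Of the 10 falls, 4, 8 and 4 were still called without wild type replicate 1, 2 and 3, and 3, 2 and 2 without hdac19-2b replicate 1, 2 and 3, and those lost had edgeR adjusted p of 0.0577 to 0.166.

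**Figure D3:**
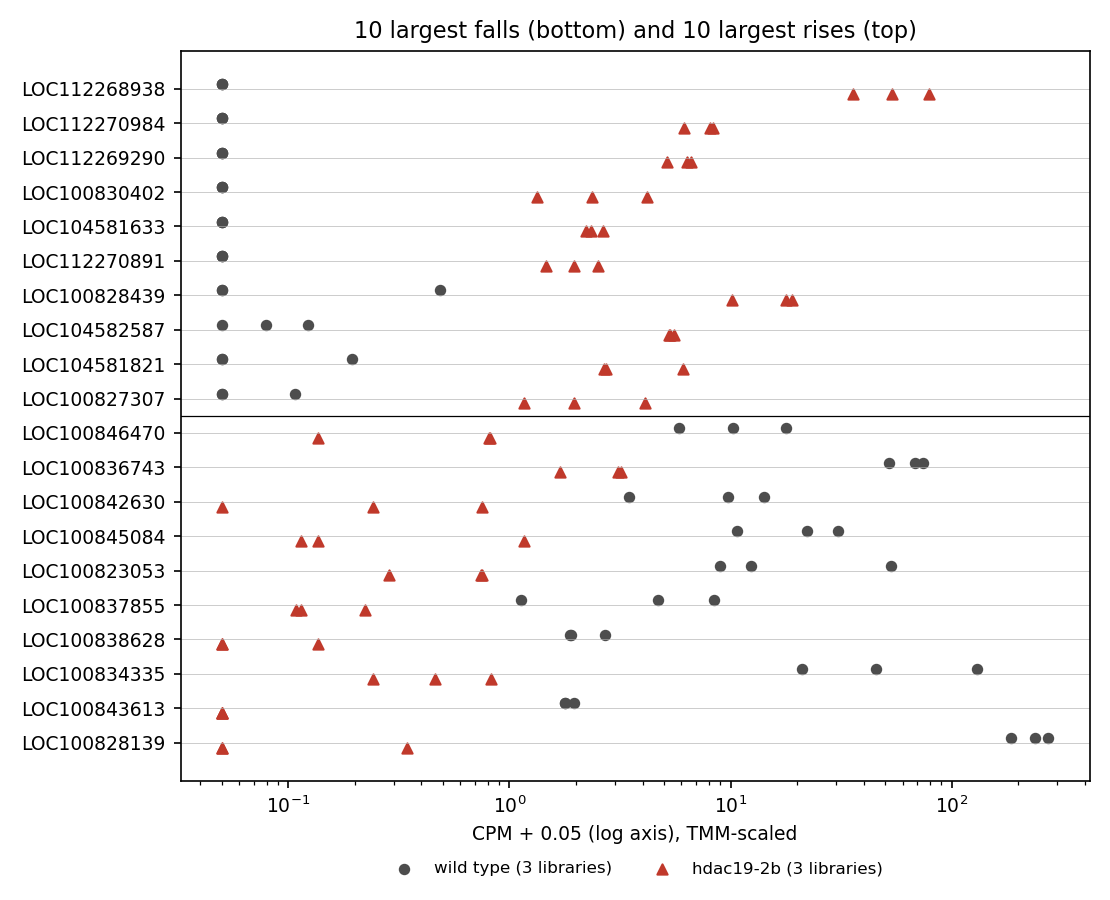
Levels of the 10 largest rises (above the line) and 10 largest falls (below it) in each library, as CPM + 0.05 on a log axis; grey circles are the 3 wild type libraries, red triangles the 3 hdac19-2b libraries, and points at the left edge are 0. No feature has overlapping groups, which the choice of these features required. LOC100828139 spans the widest gap on the side of the falls and LOC112268938 on the side of the rises.

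The 5 called falls with the highest levels were in very abundant transcripts. LOC100828241 (chromosome 4, 42331987 to 42333096, plus strand) had 3665, 2910 and 2559 CPM in wild type, against 863, 826 and 863 CPM in hdac19-2b. The mutant libraries were nearly equal and far below the lowest wild type library, with a log2 fold change of −1.84 (SE 0.21, edgeR adjusted p 0.0106). LOC100841831 (chromosome 2, 14360197 to 14361220, minus strand) fell from 1977 ± 274 to 568 ± 133 CPM (SD, n = 3), and LOC100842929 (chromosome 1, 12230374 to 12231590, minus strand) from 1589 ± 148 to 475 ± 106 CPM (SD, n = 3). LOC100821549 and LOC100842091 had log2 fold changes of −1.48 and −1.38. None of the 5 carries a gene name. All 5 were called without wild type replicate 1 or 2 and 2 without wild type replicate 3, while 3, 0 and 1 were called without hdac19-2b replicate 1, 2 and 3, and those lost had edgeR adjusted p of 0.0534 to 0.160.

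Among the rises, 6 of the 64 called features had counts that round to 0 in every wild type library, and 12 had at most 10 counts there. The first of these is LOC112268938, a long non-coding RNA (chromosome 1, 17317420 to 17318853, plus strand) that the annotation lists with 2 transcripts of the same span. Summed over both, the locus went from 0.692 ± 0.376 to 70.5 ± 17.8 CPM (SD, n = 3). One transcript had deposited values of 0.308, 0.0821 and 0.472 counts in wild type, which round to 0, and stood at 79.0, 35.9 and 53.8 CPM in the mutant, at least 1190-fold higher against a floor of 3 counts (edgeR adjusted p 0.0043). The other transcript had 1.08, 0.332 and 0.662 CPM in wild type, against 11.8, 21.6 and 9.47 CPM in hdac19-2b, a log2 fold change of 4.34 (SE 0.49, edgeR adjusted p 0.0106). Both groups were therefore apart for each transcript. The counts of both transcripts were fractional in all 6 libraries, so reads were divided between them, and the near absence of the first from wild type and its fold rest on that division. The call of the second transcript was lost without wild type replicate 3 or hdac19-2b replicate 2 (edgeR adjusted p 0.0584 and 0.0675).

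LOC112270984, a protein-coding locus (chromosome 2, 34069281 to 34072988, plus strand), had counts that round to 0 in wild type and 8.25, 6.13 and 8.07 CPM in hdac19-2b. Its deposited wild type values were 9.31e-38, 1.24e-31 and 4.67e-32 counts. Against a floor of 3 counts it was at least 154-fold higher (edgeR adjusted p 0.00881). Its counts were fractional in 3 of the 6 libraries, so its near absence from wild type and its fold rest on how reads were divided. The pseudogene LOC112269290 (chromosome 5, 2549231 to 2552042, plus strand) was at exactly 0 counts in wild type and at 6.55, 5.10 and 6.34 CPM in the mutant, at least 123-fold higher (edgeR adjusted p 0.0105). In both, the 3 mutant libraries lay close together. Also at exactly 0 in wild type were the protein-coding locus LOC100830402, at least 48.4-fold higher, and the long non-coding RNA LOC112270891, at least 39.2-fold higher. The long non-coding RNA LOC104581633 had deposited wild type values of at most 6.04e-23 counts, which round to 0, and was at least 47.0-fold higher. Its counts were fractional in 3 of the 6 libraries, so its values too rest on how reads were divided. LOC112270891 overlaps another locus on the opposite strand, so the source of its reads is uncertain.

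LOC100828439, a long non-coding RNA (chromosome 1, 6799304 to 6800048, minus strand), had 6 counts in wild type, all in replicate 1, and 17.8, 18.9 and 10.1 CPM in hdac19-2b. The pooled ratio was 155 with a 95% counting interval of 71.0 to 425 (edgeR adjusted p 0.0155). A further long non-coding RNA, LOC104582587 (chromosome 2, 14351453 to 14353333, minus strand), had 2 counts over wild type and 5.21, 5.27 and 5.51 CPM in hdac19-2b, a pooled ratio of 162 (95% counting interval 44.2 to 1342, edgeR adjusted p 0.00881). Its second transcript had counts that round to 0 in wild type and 1.07 ± 0.144 CPM in the mutant (SD, n = 3) and did not pass (edgeR adjusted p 0.0636). Counts of both transcripts were fractional in 5 of the 6 libraries, so the values of each rest on how reads were divided. The last of the 10 largest rises were non-coding transcripts of LOC104581821 and LOC100827307, each with 2 counts over wild type, the former overlapping another locus on the opposite strand. Counts of both were fractional in all 6 libraries. Neither locus was called with counts summed per gene (edgeR adjusted p 0.282 and 0.997). Of the 10 rises, 5, 6 and 5 were still called without wild type replicate 1, 2 and 3, and 3, 1 and 5 without hdac19-2b replicate 1, 2 and 3, and those lost had edgeR adjusted p of 0.0502 to 0.215.

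The most abundant of the called rises was LOC100822378, a protein-coding locus (chromosome 1, 5900040 to 5902201, plus strand). It had 442, 547 and 336 CPM in wild type, against 1199, 1169 and 912 CPM in hdac19-2b, a log2 fold change of 1.31 (SE 0.23, edgeR adjusted p 0.0422). LOC100843065 (chromosome 3, 7228638 to 7230293, plus strand) rose more steeply, from 13.3, 23.0 and 15.7 CPM to 140, 153 and 69.1 CPM, a log2 fold change of 2.80 (SE 0.34, edgeR adjusted p 0.0116). LOC100842115, LOC100846581 and LOC100845633 had log2 fold changes of 1.09, 1.23 and 1.41. Groups did not overlap in any of the 5. Still called were 2, 3 and 0 of them without wild type replicate 1, 2 and 3, and 0, 0 and 1 without hdac19-2b replicate 1, 2 and 3, with edgeR adjusted p of 0.0506 to 0.222 for those lost.

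At LOC100845101 the annotated transcript that held most of the counts differed between the groups while the summed level differed by less than its spread. This locus (chromosome 3, minus strand) has 3 features in the count table, the coding gene (18868853 to 18879815) and 2 longer non-coding transcripts. The longest non-coding transcript (18867561 to 18879815) had 2.38, 4.24 and 4.61 CPM in wild type, against 38.7, 19.4 and 25.9 CPM in hdac19-2b. Its log2 fold change was 2.89 (SE 0.35, edgeR adjusted p 0.0116), and the call was lost without hdac19-2b replicate 2 (edgeR adjusted p 0.058). The coding feature had 18.8, 35.6 and 25.2 CPM in wild type, against 0.175, 8.98 and 0.128 CPM in the mutant, so that hdac19-2b replicate 2 stood well above the other mutant libraries without reaching wild type. It did not pass (log2 fold change −3.17, SE 1.13, edgeR adjusted p 0.295). Of the alternative fits, only that without hdac19-2b replicate 2 called the coding feature (edgeR adjusted p 0.0048). The sum of all 3 features was 32.9 ± 9.85 CPM in wild type, against 31.8 ± 6.16 CPM in hdac19-2b (SD, n = 3), and when counts were summed per gene the log2 fold change of the locus was −0.05 (edgeR adjusted p 0.968). The share of the longest transcript in that sum was 10.1% to 13.4% in wild type and 68.3% to 99.5% in the mutant. Of 670 loci with several tested features and at least 5 CPM in every library, 2 had a feature whose mean share moved by at least 50 percentage points without overlap between the groups. The other was LOC100825930, where a non-coding transcript (chromosome 3, 5334195 to 5337306) went from a mean share of 22.0% to 82.7%, with an edgeR adjusted p of 0.13 for its level. These features overlap almost entirely and their counts were fractional in all libraries, so the shares rest on how the authors divided reads.

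**Figure D4:**
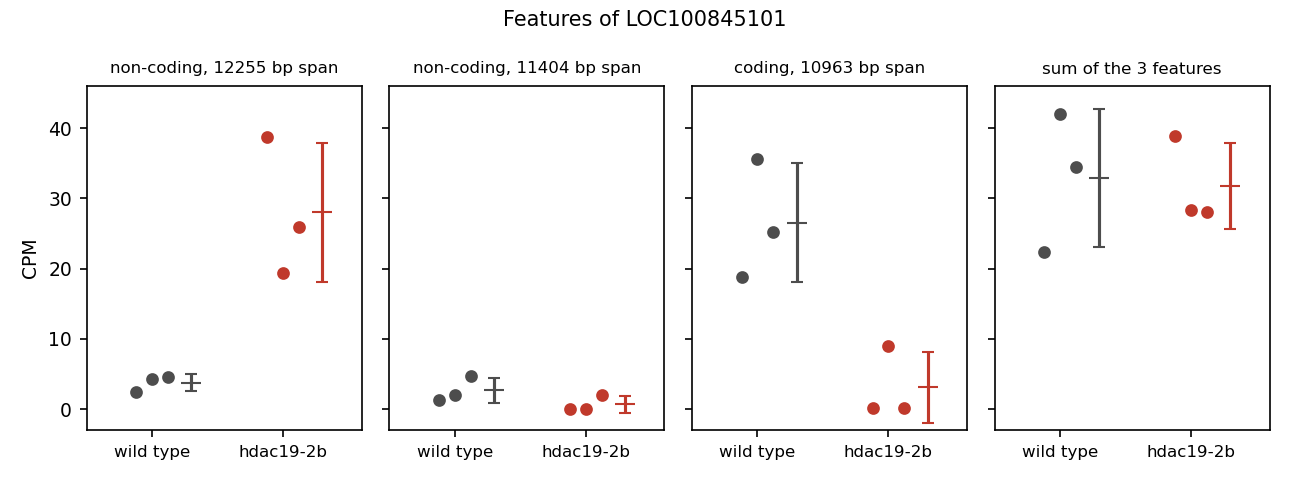
Levels of the 3 features of LOC100845101 and of their sum in each library (CPM); points are the 3 libraries of a group, and bars are the mean and SD. The longest non-coding transcript is at 19.4 to 38.7 CPM in hdac19-2b against 2.38 to 4.61 CPM in wild type, the coding feature shows the opposite order, and the sums overlap.

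At LOC100844361 (chromosome 2, 21543265 to 21553516, plus strand) the coding feature fell and the sum over the locus was lower too. The coding feature had 59.1, 76.3 and 48.4 CPM in wild type, against 6.49, 9.50 and 7.75 CPM in hdac19-2b, a log2 fold change of −2.96 (SE 0.24, edgeR adjusted p 0.00439). Its non-coding transcript, which differs by 1 base in span, had 12.3 ± 8.08 and 1.76 ± 2.38 CPM (SD, n = 3) and did not pass (edgeR adjusted p 0.291). Counts of both features were fractional in all 6 libraries, so the values of each rest on how reads were divided. The locus as a sum went from 73.6 ± 19.8 to 9.67 ± 2.52 CPM (SD, n = 3). The call of the coding feature held in all 6 fits that left out a library and was lost in the fit of all 9 libraries (edgeR adjusted p 0.194). For LOC100827307, where a non-coding transcript rose, the sum over the locus stood at 12.8 ± 0.749 and 13.2 ± 4.37 CPM (SD, n = 3), with a log2 fold change of −0.00441 for counts summed per gene.

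By kind of transcript, protein-coding genes gave 52 of the rises and 166 of the falls among 19419 tested (1.12%, beside 1.02% of all features). Long non-coding RNAs gave 6 rises and 3 falls among 1972 (0.456%), and 2 of the rises are transcripts of the same locus, LOC112268938, with reads divided between them. The 3 falls, named here after their values were seen, were LOC100840802, from 26.1 ± 4.17 to 6.51 ± 1.74 CPM, LOC104582629, from 216 ± 82.3 to 52.0 ± 15.6 CPM, and LOC104584796, from 252 ± 36.8 to 119 ± 10.6 CPM (SD, n = 3). The long non-coding RNAs that fell had at least 22.7 CPM in every wild type library, while those that rose had at most 1.08 CPM in any wild type library. Wild type is the higher group for the falls and the lower group for the rises, so the split by direction itself favours such a contrast. In hdac19-2b the falls stood at 4.545 to 130 CPM and the rises at 1.41 to 79.0 CPM. Without 1 library, LOC100840802 was called in 3 of 6 fits and the other two in 1 of 6 each, that without wild type replicate 2, and the edgeR adjusted p of those lost was 0.0584 to 0.197. Non-coding transcripts of protein-coding genes gave 4 rises and no fall among 1081 (0.37%). Pseudogenes gave 1 rise and 2 falls among 427 (0.703%), the falls being LOC100834640 (15.1 ± 7.74 to 2.25 ± 0.681 CPM) and LOC100842323 (30.3 ± 10.2 to 7.95 ± 1.08 CPM; SD, n = 3). The misc_RNA LOC100846947 rose from 2 counts to 1.86 ± 0.215 CPM (SD, n = 3), a pooled ratio of 56.8 (95% counting interval 15.2 to 477), and overlaps another locus on the opposite strand. Its call was lost in all 6 fits without 1 library, that of LOC100834640 in all but the fit without wild type replicate 2, and that of LOC100842323 in the fits without wild type replicate 3 or a mutant library (edgeR adjusted p 0.0692 to 0.174 where lost).

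Of the genes with an annotated name or description, edgeR called 2 of 158, 1 lower and 1 higher, close to the 1.02% of all features. DESeq2 called 11 of 174 (beside 3.54% of all features), among them CBF5, and edgeR called 0 in each of the 4 fits without wild type replicate 3 or 1 mutant library. CBF7 (chromosome 4, 40903477 to 40904696, minus strand) encodes a C-repeat binding factor, a transcription factor of the AP2/ERF family that switches on cold and dehydration response genes. Its level was 66.2, 12.4 and 23.6 CPM in wild type, against 2.87, 2.16 and 1.22 CPM in hdac19-2b. All mutant libraries were below the lowest wild type library, with a log2 fold change of −4.02 (SE 0.64, edgeR adjusted p 0.0303). Its neighbour in the family CBF5 had 5.84, 0.748 and 1.32 CPM in wild type and no count in the mutant, a pooled level at least 33.1-fold lower that did not pass in edgeR (adjusted p 0.0815) and passed in DESeq2 (adjusted p 0.000162). In both genes wild type replicate 1 was far above the other wild type libraries. LOC100828546 (synonym CIPK14; chromosome 4, 47804128 to 47807070, plus strand) encodes a protein kinase of the family that is activated by calcineurin B-like calcium sensors. It rose from 50.1, 42.0 and 39.6 CPM to 94.3, 102 and 106 CPM, with little spread in either group and a log2 fold change of 1.20 (SE 0.16, edgeR adjusted p 0.0167). Neither call held without wild type replicate 3 or without any 1 of the mutant libraries (edgeR adjusted p 0.0606 to 0.167).

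SnRK2 and MAP kinase genes mostly had small negative log2 fold changes, and edgeR called none of them. The SAPK genes encode SnRK2 kinases, which phosphorylate targets when abscisic acid or osmotic stress is sensed. All 9 were tested, 8 had a negative log2 fold change, and the median was −0.11, beside 0.0133 over all tested features. LOC100843625 (SAPK5) had 85.0, 65.5 and 65.7 CPM in wild type, against 46.4, 44.9 and 38.4 CPM in hdac19-2b, without overlap (log2 fold change −0.74, SE 0.17, edgeR adjusted p 0.101). LOC100823438 (SAPK2) had 120, 82.1 and 118 CPM and 64.4, 59.4 and 70.0 CPM, also without overlap (log2 fold change −0.72, SE 0.19, edgeR adjusted p 0.139). The DESeq2 Wald test called both (adjusted p 0.00667 and 0.0127). The 5 features of protein phosphatases 2C, which hold SnRK2 kinases inactive without the hormone, and of the bZIP factor TRAB1 ran from −0.46 to 0.056, with 4 of 5 negative.

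Among 10 genes of the MAP kinase cascade, which relays stress signals by successive phosphorylation, 8 had negative log2 fold changes (7 with upper-quartile scaling), with a median of −0.076. MPK3 had the largest, with 172, 49.2 and 85.6 CPM in wild type, against 38.1, 21.8 and 22.1 CPM in hdac19-2b. The groups did not overlap but wild type replicate 1 stood apart, and MPK3 did not pass (log2 fold change −1.90, SE 0.44, edgeR adjusted p 0.0929), nor did MPK7-1 at −0.40 (edgeR adjusted p 0.398). MPK3 was called by DESeq2 (adjusted p 0.000364), and by edgeR with the replicate number as a block (adjusted p 0.0354) and without wild type replicate 2 (adjusted p 0.0369). Beside LOC100828546, the calcium signalling list had CBL2, a sensor, at −0.35, and the kinase genes LOC100830701 (CIPK2) at −0.36 and LOC100831178 (CIPK15) at 0.52, and none of these 3 was called. The abundant polyubiquitin genes, whose products supply ubiquitin for tagging proteins, had log2 fold changes of 0.15 for LOC100832168 (UBQ4) and 0.053 for LOC100841406 (UBQ10).

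**Figure D5:**
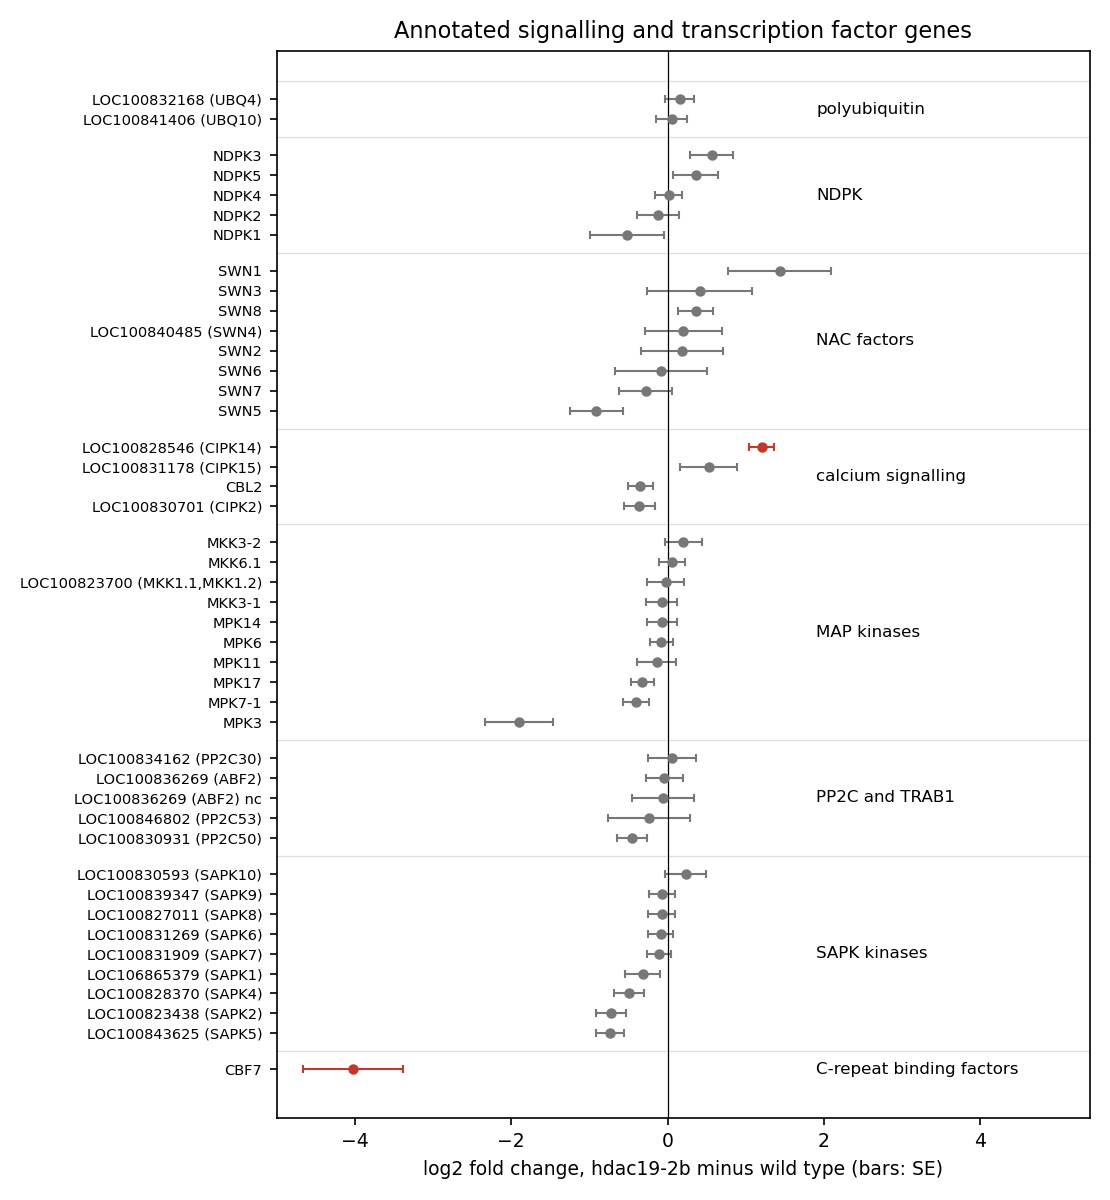
Log2 fold changes, hdac19-2b minus wild type, of tested genes in 8 annotated families, with bars of 1 SE; red points are called by edgeR and grey points are not, and nc marks a non-coding transcript. CBF7 at −4.02 and LOC100828546 (CIPK14) at 1.20 are the called genes, MPK3 lies at −1.90, and the rest lie between −0.91 and 1.43. CBF5 is not drawn, since no mutant library held a count of it.

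No transcription factor of the NAC or MADS-box lists was called by edgeR. The NAC genes SWN1 to SWN8, of the class that directs secondary cell wall formation, had a median log2 fold change of 0.19 and lay on both sides, from −0.91 for SWN5 (7.55 ± 2.02 to 3.99 ± 1.11 CPM; SD, n = 3) to 1.43 for SWN1. The MADS-box list, of a family best known for flowering time and floral organ identity, had 23 tested features with a median of −0.17, of which 16 were negative. Nearest to the threshold was LOC100824579, described as AGL14-like, whose coding feature had 24.2, 20.1 and 25.7 CPM in wild type, against 15.3, 9.76 and 7.68 CPM in hdac19-2b (log2 fold change −1.09, SE 0.27, edgeR adjusted p 0.122). DESeq2 called this feature (adjusted p 0.019) and the gene's non-coding transcript (adjusted p 0.0398), which edgeR did not (adjusted p 0.174). Of 81 tested chloroplast features edgeR called none, and the median log2 fold change was −0.0175. The chloroplast ribosomal protein gene rps3 had 0, 0.166 and 0.374 CPM in wild type, against 5.15, 4.41 and 2.11 CPM in hdac19-2b (edgeR adjusted p 0.0767), and rpl36 had 3.17 ± 2.39 and 0.194 ± 0.205 CPM (SD, n = 3; edgeR adjusted p 0.146). DESeq2 called both (adjusted p 0.000169 and 0.00587), and limma-trend called rps3. Both overlap the annotated span of rps12, and chloroplast RNA was counted only as far as it passed poly(A) selection. Of the 33 gene lists matched to names and descriptions, 11 had a tested member, and those for histones, late embryogenesis abundant proteins, heat shock proteins and aquaporins had none.

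Called loci lay on all 5 chromosomes, with 64, 59, 45, 44 and 23 calls on chromosomes 1 to 5, which is 0.872% to 1.21% of the tested features of each. Next to another called locus lay 16 of the 234 called loci (6.84%), beside 2.18% of all 21204 tested loci. They formed 8 adjacent pairs, and both members moved the same way in all 8, 5 pairs lower and 3 higher. Of the 235 called features 171 were lower, so pairs drawn without regard to position would often share a direction too. On chromosome 3, LOC100825629 (22662662 to 22663524) had 96.8, 13.1 and 35.3 CPM in wild type, against 1.99, 4.23 and 2.05 CPM in hdac19-2b. Its neighbour 3280 bp away, LOC106865416, had 85.7, 16.3 and 25.4 CPM and 1.87, 3.89 and 1.79 CPM, so the pair had the same order of libraries in wild type and like levels throughout, with log2 fold changes of −4.16 and −4.10. On chromosome 2, LOC100825510 fell from 304 ± 101 to 43.9 ± 17.6 CPM and LOC100826347, 5160 bp away, from 236 ± 52.6 to 84.2 ± 24.4 CPM (SD, n = 3). Counts of both were fractional in all 6 libraries, so reads were divided between features, and whether the 2 loci shared reads is not known. On chromosome 1, LOC100842630 and LOC100846470 of the largest falls are 2183 bp apart, and counts of each were fractional in 2 of the 6 libraries. Among the rising pairs, LOC100841352 (log2 fold change 1.76) and LOC100823178 (4.44, from 0.387 ± 0.191 to 8.96 ± 4.66 CPM; SD, n = 3) lie 12791 bp apart on chromosome 3. Still called were 5, 13 and 2 of the 16 members without wild type replicate 1, 2 and 3, and 3, 0 and 3 without hdac19-2b replicate 1, 2 and 3, with edgeR adjusted p of 0.0502 to 0.200 for those lost.

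The other mutant of the series, gf14h-1, was compared with the same wild type libraries, so its values are set beside those of hdac19-2b and not counted as support. In the fit of all 9 libraries, the 64 rises had a median log2 fold change of 2.01 in hdac19-2b and 1.36 in gf14h-1, and the 171 falls −1.76 and −1.13. Of the 6 rises from counts that round to 0 in wild type, LOC112270984 and LOC112270891 were at rounded counts of 0 in gf14h-1 too. The other 4 were present there, LOC112268938 at 31.3, 29.2 and 69.9 CPM, LOC112269290 at 11.2, 3.60 and 1.06 CPM, LOC104581633 at 11.4, 2.75 and 4.23 CPM and LOC100830402 at 1.45, 1.38 and 4.94 CPM. The shallowest gf14h-1 library is far below the others in depth, so low levels and counts of 0 there are less certain. Against wild type, gf14h-1 was called in that fit for LOC112268938, LOC104581633 and LOC112269290 (edgeR adjusted p 0.00255, 0.0284 and 0.0394) and not for LOC100830402 (edgeR adjusted p 0.0862). The longest transcript of LOC100845101 had log2 fold changes of 2.90 in hdac19-2b and 2.75 in gf14h-1, LOC100843065 of 2.80 and 2.97, and LOC100834335 of −7.21 and −5.37. LOC100828139, near 0 in hdac19-2b, had 192, 189 and 363 CPM in gf14h-1. It was the only one of the 235 called between the mutants in that fit (edgeR adjusted p 0.000108). Others could differ without being called, since the gf14h-1 libraries spread widely. LOC112270984, at 0 counts in gf14h-1 and 6.13 to 8.25 CPM in hdac19-2b, was not called between them (edgeR adjusted p 0.1545).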

How the data were processed

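RNA-seq of 6 libraries was compared, 3 of hdac19-2b and 3 of wild type. The count table the authors deposited gives estimated counts for each annotated feature. In a library 69.1% to 75.7% of values were whole to within 0.001, and all were rounded. The authors also deposited a signal table, per its file header normalized by median ratio; with 1 size factor for each library, 99.93% to 100% of its values came back as whole reads (within 0.1), and the count test on these reads, an alternative, called 243 features (65 higher, 178 lower). HISAT2, DESeq2, Partek and FastQC 0.11.9 are listed in the submitters' processing notes, without their roles. Names, kinds and positions are those of the deposited annotation and of RefSeq for Brachypodium_distachyon_v3.0, which shares 98.5% of gene starts.

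Features were tested with edgeR 4.0.16 (R 4.3.3) by a quasi-likelihood fit on the 6 libraries with genotype as the only term, after TMM scaling and the default filter, with Benjamini-Hochberg adjustment over all tested features. The gf14h-1 libraries were left out because their mean within-group variance of log2 CPM was 1.07, against 0.432 (wild type) and 0.455 (hdac19-2b). Each SE was taken as |log2 fold change| over the root of the F statistic. Folds against a group at 0 use 3 counts over its pooled libraries, and ratios with at most 10 pooled counts carry exact 95% intervals, both for counting error only. Every pair of replicates differed beyond sampling noise, with a chi-square of at least 18 per degree of freedom. Simulated data were used to check the fit. Alternatives were other libraries, scalings, filters and inputs, DESeq2 1.42.0 and limma-trend (limma 3.58.1).

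Named were the 10 largest called rises and falls without overlap and with at least 1 CPM, called features with a gene name, the 5 most abundant called in each direction, called list members and non-coding features, and, for lists without a call, up to 2 members with an unadjusted p under 0.05. Neighbouring and multi-feature loci were added afterwards. The comparison and lists were chosen with earlier results of these data known.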

Additional observations from a re-analysis of the deposited data

Results flagged for a closer look

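LOC100828139 changed differently in the 2 mutants. In the fit of all 9 libraries, its log2 fold change against wild type was −10.9 in hdac19-2b and 0.11 in gf14h-1, a difference (hdac19-2b minus gf14h-1) of −11.04 in edgeR's test of that difference (adjusted p 0.000108). With 5 counts over the hdac19-2b libraries, the size of that fitted difference depends on the prior count. The wild type libraries are common to both comparisons, and no cause was tested.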

How the results depend on the processing

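The total of 235 calls was 65 with all 9 libraries, 1008 with the DESeq2 Wald test and 449 with counts summed per gene. The 64 higher calls were 19, 298 and 123 in these, and the 171 lower calls 46, 710 and 326. Leaving out 1 library gave 6 to 273 calls, 2 to 57 higher and 4 to 216 lower. The share of calls that were lower was 72.8%, 69.4% to 73.5% under other scalings and 57.6% without hdac19-2b replicate 3. With counts summed per gene, the non-coding transcript of LOC100845101 had −0.0504 (adjusted p 0.968) and that of LOC100827307 −0.00441 (adjusted p 0.997), both from edgeR, because the sum takes in their other features. LOC104581821 was not called in that setting either (edgeR adjusted p 0.282). That setting also called 218 loci that the features did not, 8 of them with several features, and the cause was not tested.

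Replicate numbers showed no sign of pairing the libraries. Deviations of same-numbered libraries had correlations of 0.018, −0.023 and −0.046, and those of differently numbered libraries ran from −0.11 to 0.13. With 3 libraries in a group this check is weak, and a shared batch was not tested. A fit with the replicate number as a block called 157, 40 higher and 117 lower, with 125 of the 235 among them; it called MPK3 (adjusted p 0.0354) and not LOC100828546 (adjusted p 0.0548) in edgeR. Depth limits the scarce features: 12 called rises and 4 called falls rest on at most 10 pooled counts in a group.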

Other observations

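All 18 tested small nuclear RNA features, whose products take part in splicing, had positive log2 fold changes, with a median of 0.63, and none had an unadjusted p under 0.05. Their summed level was 48.4, 58.1 and 125 CPM in wild type and 165, 151 and 50.6 CPM in hdac19-2b, so the groups overlapped, with wild type replicate 3 high and hdac19-2b replicate 3 low. Small nuclear RNAs were counted only as far as they passed poly(A) selection. Of 8 tested microRNA precursors edgeR called none; MIR396E, which yields a microRNA known in plants for targeting growth-regulating factors, had 4.18, 6.15 and 5.04 CPM in wild type and 2.28, 0.691 and 2.63 CPM in hdac19-2b, without overlap (edgeR adjusted p 0.304).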
